A study of Gallus gallus with 12 samples.

Results

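Collagens and the enzymes that modify them were read gene by gene in abdominal fat and liver of normal chickens. The members were taken by symbol, as collagen chain genes (COL followed by a number, A and a number) and as the prolyl hydroxylases P3H and P4HA, the lysyl hydroxylases PLOD, and the lysyl oxidases LOX and LOXL. This rule found 52 of the 18332 genes in the data, 41 collagen chains and 11 enzymes, and each symbol matched 1 gene. The 3 close relatives LEPRE1, LEPREL1 and LEPREL4 are older names of P3H1, P3H2 and P3H4, so they did not match the symbol rule and were not members.

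The birds were purebred female Xinghua chickens labelled as 8 weeks old, all of the normal and not the sex-linked dwarf type. By the study's methods this was their age when feeding of the diets began, and tissue was taken after a period of feeding. HN birds were fed a high-fat diet (HFD) and NN birds a normal diet. RNA-seq libraries came from HN abdominal fat, NN abdominal fat, HN liver and NN liver, with 3 libraries in each group and 12 in all. By the study's methods, 3 livers and 3 abdominal fats of each group were picked for sequencing. Whole pieces of tissue were used, so more cells of a type and more RNA per cell cannot be told apart. The labels do not say whether the libraries of a group came from separate birds or whether the fat and liver of the same number came from the same bird, so p-values measure only the spread between these libraries.

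Collagens are the main structural proteins of the extracellular matrix. Each molecule is a triple helix of chains that is hydroxylated on proline and lysine inside the cell, secreted, trimmed, and then cross-linked outside the cell by lysyl oxidases. Fibrillar collagens form the fibres of connective tissue, type IV collagen forms the sheet of basement membranes, and type VI collagen forms fine beaded filaments around cells. In fat each adipocyte is wrapped in a basement membrane, whereas healthy liver holds little fibrous matrix.

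The values are FPKM, read fragments scaled to the length of the transcript and the size of the library, so levels can be compared between genes per length. The depth of a library is not given with FPKM. A rough estimate took the smallest non-zero value of low genes as 1 read and kept only values close to it. It put the relative depth of the 12 libraries at 0.973 to 1.02. Larger gaps in depth are left out by this rule, so the estimate cannot show that depths were equal. Markers went with the labelled tissues. The 6 adipocyte markers summed to 13934 to 16477 FPKM in HN fat and 14801 to 19146 FPKM in NN fat, against 187 to 275 FPKM in HN liver and 113 to 158 FPKM in NN liver. The 5 hepatocyte markers summed to at least 69812 FPKM in every liver. They were also present in fat, mostly as APOA1, at 3479 to 7763 FPKM in HN fat and 8533 to 10544 FPKM in NN fat. Cartilage markers (2 found of 3) were below 1 FPKM in all libraries.

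Collagen chains took a larger share of the summed FPKM in fat than in liver. They made up 1.97%, 2.65% and 1.43% of the summed FPKM in the 3 HN fats, against 1.23%, 1.23% and 1.16% in the NN fats. In liver they made up 0.0402%, 0.0405% and 0.0298% in HN birds, against 0.0394%, 0.0338% and 0.0388% in NN birds. All HN fats lay above all NN fats in this share, and the HN and NN livers overlapped. In each fat library the 4 highest collagens held 67.6% to 78.5% of the collagen sum. Of the 52 members, 38 had a mean of at least 1 FPKM in fat, 26 of at least 10 and 11 of at least 100. In liver 25 had a mean of at least 1 FPKM, 9 of at least 10 and none of at least 100.

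**Figure D1:**
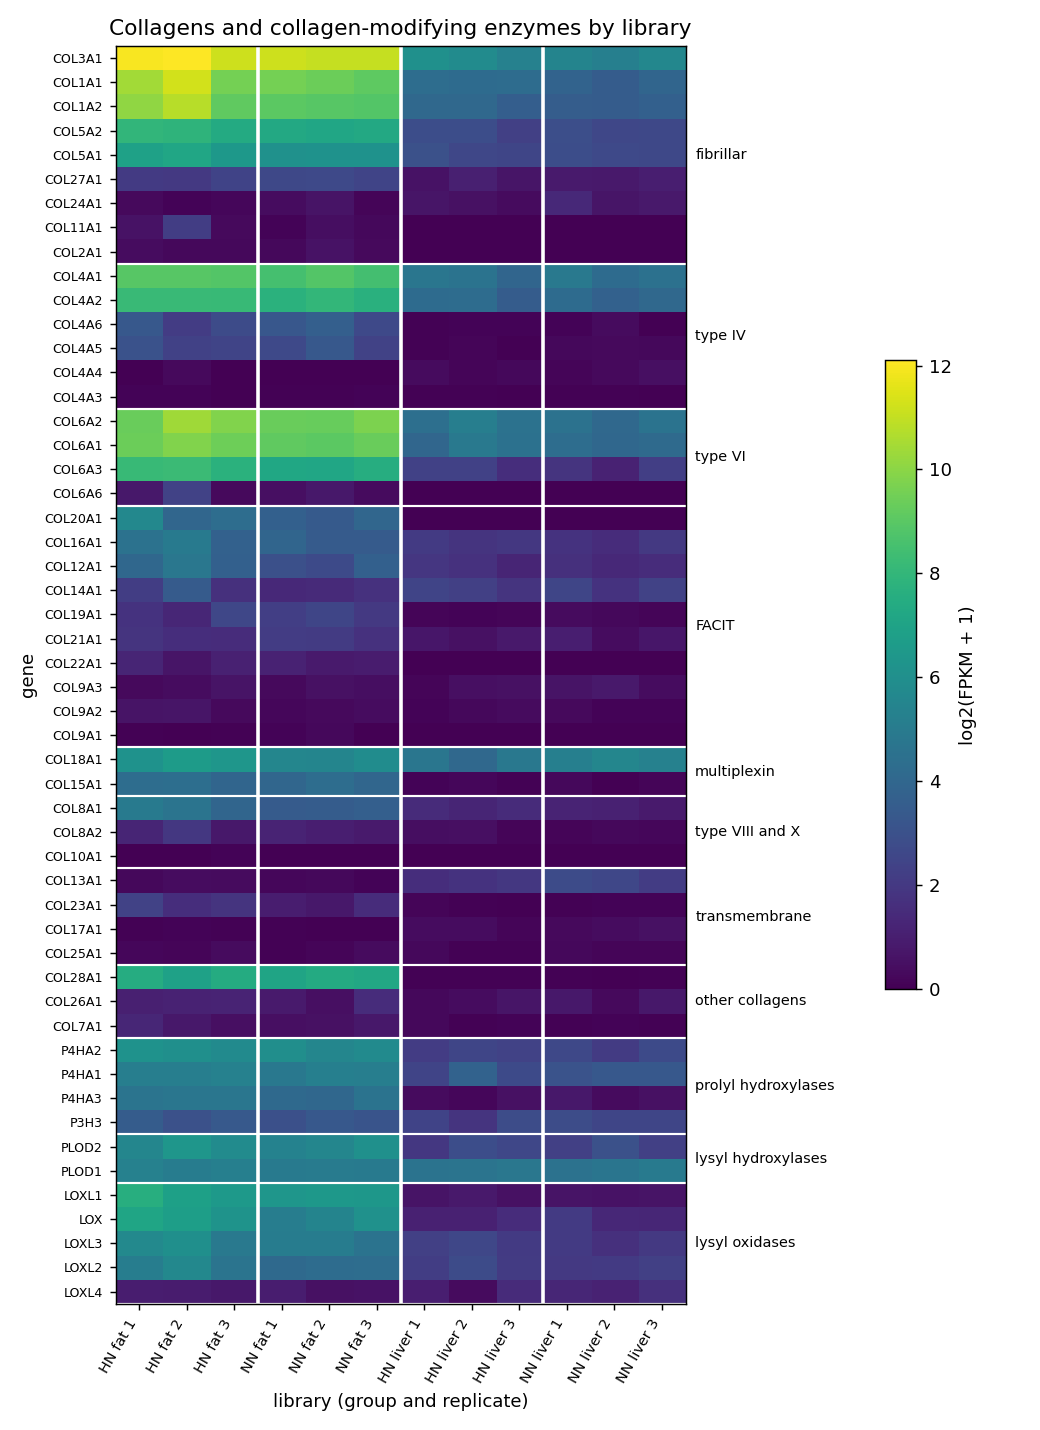
Level of the 52 members in each library, as log2(FPKM + 1) by colour, with genes in rows by class and libraries in columns by group. The fibrillar chains COL3A1, COL1A1 and COL1A2 and the chains COL4A1, COL4A2, COL6A1, COL6A2 and COL6A3 were bright in all 6 fats, COL28A1 was bright in fat and dark in liver, and COL13A1 was brighter in liver than in fat.

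Effect of HFD on collagens in abdominal fat was examined first. Most collagen and modifying-enzyme genes had a higher mean in HN fat than in NN fat, but none of them passed the test adjusted over all genes. By limma on log2(FPKM + 1), 0 of the 38 members with a mean of at least 1 FPKM in fat reached an adjusted p under 0.05, and the lowest adjusted p of a member was 0.799. Over all 12394 genes tested the share called was 0.00807%, which is 1 gene. At an unadjusted p under 0.05, 17 members were higher and 1 was lower in HN fat, against 2.39% of all genes higher and 2.29% lower. With median-ratio scaling of the libraries the count over all genes was 374 higher and 195 lower, beside 296 higher and 284 lower as deposited. A higher mean in HN fat was found for 33 of the 38 members, against 37.3% of all genes. With median-ratio scaling it was again 33 of 38 members, against 6100 of 12393 genes. All 3 HN fats lay above all 3 NN fats for 18 members, against 3.49% of all genes, and below them for 1 member, against 6.81%. The median log2 difference, HN minus NN, was 0.43 over the members and -0.07 over all genes tested. Leaving out single libraries gave 8 to 18 members higher and 0 to 2 lower at an unadjusted p under 0.05. It was 11 higher without HN fat 1, HN fat 2, NN fat 1 or NN fat 3, 8 without NN fat 2 and 18 without HN fat 3. The count over all genes moved as well, with 159 of 12362 higher without NN fat 2 and 658 of 12398 without HN fat 3. Without HN fat 1, HN fat 2, NN fat 1 or NN fat 3 that count was 165, 198, 168 or 355 genes. The remaining 14 members did not reach a mean of 1 FPKM in fat and were not tested there.

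Fibrillar collagens held the highest levels, and 5 of the 6 tested had a higher mean in HN fat. COL3A1, the single chain of type III collagen, had 4105, 4386 and 2326 FPKM in HN fats, against 2321, 2098 and 2079 FPKM in NN fats. The lowest HN fat was only just above the highest NN fat. The log2 difference was 0.68 ± 0.26 (SE), with an unadjusted p of 0.0303 and an adjusted p of 0.799. COL1A1, which gives a pair of the chains of type I collagen, had 1374, 2512 and 751 FPKM in HN fats, against 753, 666 and 555 FPKM in NN fats. COL1A2, which gives the remaining chain, had 1087, 1754 and 572 FPKM in HN fats, against 538, 504 and 458 FPKM in NN fats. Both type I genes were highest in HN fat 2 and next in HN fat 1, and HN fat 3 was level with the NN fats for COL1A1. Their log2 differences were 1.07 ± 0.40 and 1.04 ± 0.37 (SE), each with an adjusted p of 0.799. The COL1A1 to COL1A2 ratio was 1.26 to 1.43 in HN fats and 1.21 to 1.399 in NN fats. The COL3A1 to COL1A1 ratio was 1.75 in HN fat 2 and 2.99 to 3.74 in the other 5 fats.

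Type V collagen sits inside type I fibrils and limits their width. COL5A1 had 122, 144 and 85.2 FPKM in HN fats, against 69.2, 69.9 and 71.01 FPKM in NN fats, where the 3 values were almost the same. COL5A2 had 249.5, 229 and 167 FPKM in HN fats, against 157, 143 and 155 FPKM in NN fats. HN and NN fats did not overlap for either gene, with log2 differences of 0.70 ± 0.19 and 0.48 ± 0.17 (SE). COL27A1, a fibrillar chain best known from cartilage, went the other way. It had 3.22, 2.98 and 4.35 FPKM in HN fats, against 5.24, 5.37 and 4.60 FPKM in NN fats, and of the members tested only COL27A1 had its highest HN fat under its lowest NN fat. Its log2 difference was -0.44 ± 0.17 (SE), with an adjusted p of 0.799. The other fibrillar chains, COL2A1, COL11A1 and COL24A1, were below a mean of 1 FPKM in fat over the 6 libraries. COL11A1 was above 1 FPKM only in HN fat 2, at 3.54 FPKM.

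The main chains of type IV collagen were abundant. COL4A1 had 503, 499 and 471 FPKM in HN fats, against 375, 462 and 358 FPKM in NN fats. COL4A2, its partner chain, had 288, 298 and 282 FPKM in HN fats, against 212, 253 and 205 FPKM in NN fats. HN fats lay above NN fats for both chains, with log2 differences of 0.31 ± 0.14 and 0.38 ± 0.12 (SE) and unadjusted p of 0.0574 and 0.0177. COL4A5 and COL4A6, which form another type IV network, were at 3.40 to 11.74 FPKM in the 6 fats, with lower means in HN fat and overlapping groups. The kidney chains COL4A3 and COL4A4 stayed at or below 0.39 FPKM in all 12 libraries.

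Type VI collagen had 3 abundant chains. COL6A1 had 666, 892 and 697 FPKM in HN fats, against 559.9, 533 and 641 FPKM in NN fats. COL6A2 had 652, 1329 and 895 FPKM in HN fats, against 646, 628 and 830.3 FPKM in NN fats. COL6A3, the long chain from which endotrophin is cleaved in mammals, had 279.8, 304 and 213 FPKM in HN fats, against 149, 141 and 183 FPKM in NN fats. The groups did not overlap for COL6A1 and COL6A3 and overlapped for COL6A2. COL6A3 had a log2 difference of 0.74 ± 0.17 (SE; 95% interval 0.34 to 1.15) and an unadjusted p of 0.00327, beside 0.37 ± 0.16 for COL6A1 and 0.40 ± 0.26 for COL6A2. The COL6A3 to COL6A1 ratio was 0.306 to 0.420 in HN fats and 0.264 to 0.286 in NN fats, without overlap. Of the other chain ratios read, only COL4A1 to COL4A2 did not overlap, at 1.67 to 1.74 in HN and 1.75 to 1.83 in NN fats. How often ratios of other gene pairs separate was not counted. COL6A6 was at most 0.70 FPKM in 5 fats and 4.27 FPKM in HN fat 2.

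**Figure D2:**
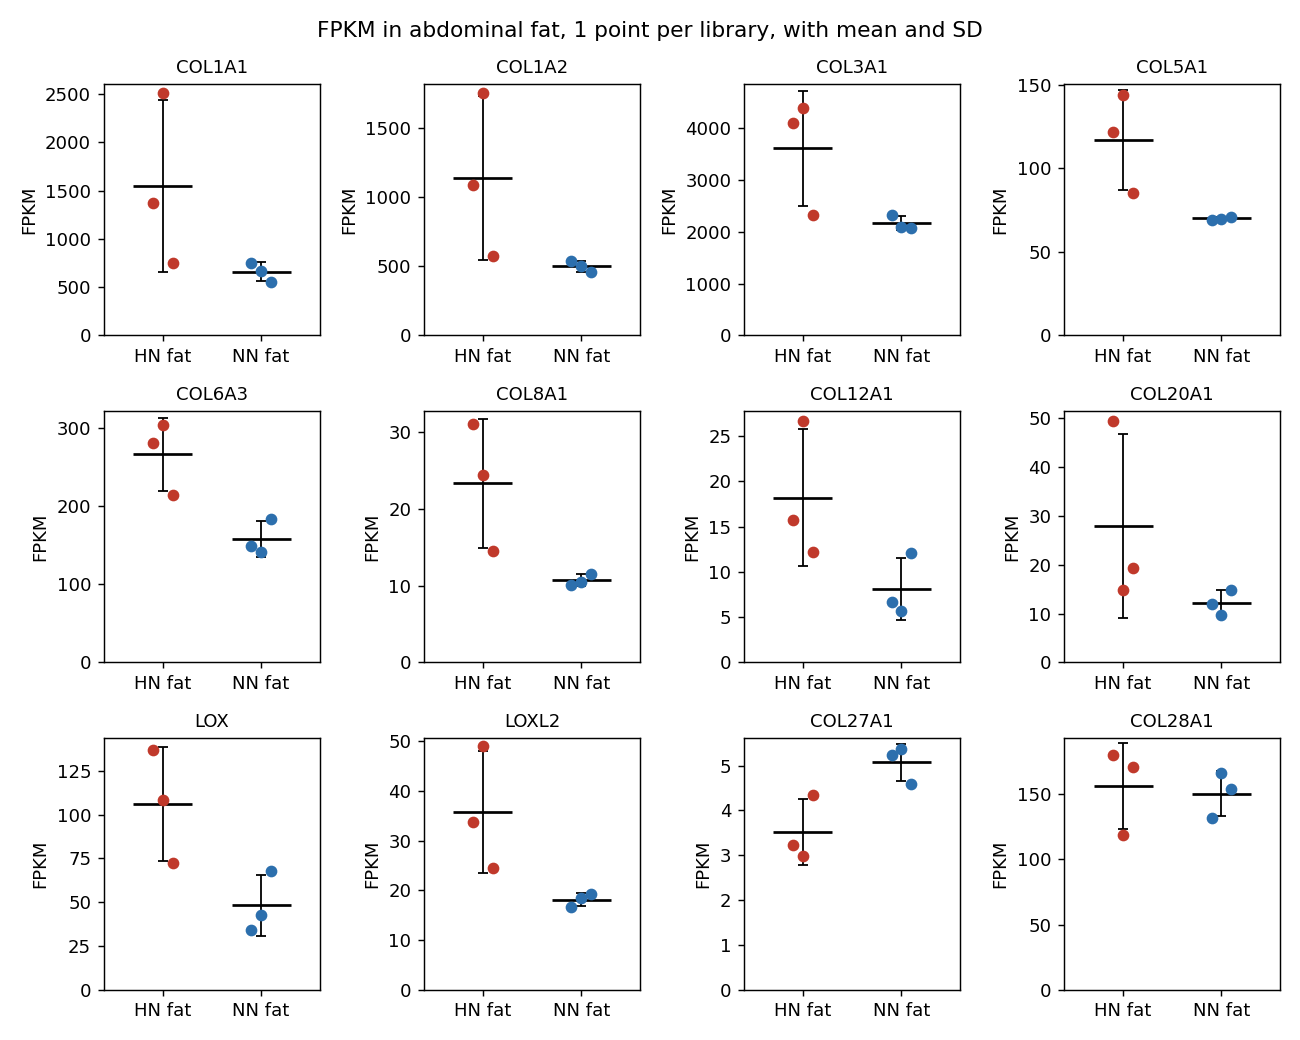
FPKM of 12 members in abdominal fat, 1 point per library, with HN fat to the left of NN fat, the horizontal line at the mean and the bar showing SD (3 libraries a group). HN fats lay above NN fats for most panels, with HN fat 3 closest to the NN fats for COL1A1, COL3A1 and COL8A1, while COL27A1 was lower in HN fats and COL28A1 overlapped.

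The fibril-associated collagens (FACIT) attach to the surface of fibrils. Of the 7 tested in fat, 5 had a higher mean in HN fat. COL12A1 had 15.7, 26.7 and 12.2 FPKM in HN fats, against 6.65, 5.64 and 12.1 FPKM in NN fats, a log2 difference of 1.07 ± 0.34 (SE). Its lowest HN fat and its highest NN fat were nearly level. COL20A1 had 49.4, 14.9 and 19.2 FPKM in HN fats, against 12.02, 9.66 and 14.8 FPKM in NN fats, and HN fat 1 stood above the rest. COL16A1 had 22.4, 29.8 and 12.4 FPKM in HN fats, against 14.2, 10.2 and 10.2 FPKM in NN fats, with overlap. COL14A1 had 3.66, 9.95 and 2.17 FPKM in HN fats, against 1.59, 1.76 and 2.26 FPKM in NN fats. HN fat 2 carried most of that difference, and the groups overlapped, with an unadjusted p of 0.0613. COL19A1 and COL21A1 had lower means in HN fat, with log2 differences of -0.38 ± 0.33 and -0.35 ± 0.19 (SE) that did not pass even without adjustment. The 3 chains of type IX collagen, a cartilage collagen, were at most 0.60 FPKM in the fats.

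Among the remaining collagens, COL18A1 and COL8A1 did not overlap between the diets in fat. COL18A1, the basement membrane multiplexin from which endostatin is cleaved, had 70.6, 97.9 and 81.3 FPKM in HN fats, against 45.3, 45.04 and 58.5 FPKM in NN fats. Its log2 difference was 0.73 ± 0.17 (SE; 95% interval 0.34 to 1.12), with an unadjusted p of 0.00279, the lowest of all members, and an adjusted p of 0.799. COL15A1, the other multiplexin, had 19.1, 19.8 and 14.4 FPKM in HN fats, against 15.2, 19.03 and 14.8 FPKM in NN fats, and the groups overlapped. COL8A1, a short chain made by vessel wall cells, had 31.1, 24.4 and 14.5 FPKM in HN fats, against 10.1, 10.5 and 11.5 FPKM in NN fats, a log2 difference of 0.99 ± 0.26 (SE). COL8A2, its partner, had only 1.37, 2.94 and 0.70 FPKM in HN fats, against 1.28, 1.03 and 0.82 FPKM in NN fats. The transmembrane chain COL23A1 had 4.26, 1.97 and 2.52 FPKM in HN fats, against 0.94, 0.73 and 1.86 FPKM in NN fats, and the groups did not overlap, although these levels were low. COL28A1, a von Willebrand factor A domain collagen known from mammalian nerve, overlapped between the diets, at 180.4, 119 and 171 FPKM in HN fats, against 132, 166 and 154 FPKM in NN fats. The interval of its log2 difference ran from -0.39 to 0.47. COL26A1 had 1.11, 1.23 and 1.27 FPKM in HN fats, against 0.83, 0.40 and 1.94 FPKM in NN fats.

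All 10 modifying enzymes tested in fat had a higher mean in HN fat, and the 4 lysyl oxidases had a median log2 difference of 0.75. LOX, the enzyme that starts cross-linking by oxidising lysines, had 137, 109 and 72.2 FPKM in HN fats, against 34.1, 42.8 and 67.6 FPKM in NN fats. HN and NN fats did not overlap, and the log2 difference was 1.13 ± 0.30 (SE; 95% interval 0.42 to 1.84), the largest of the members on the log2(FPKM + 1) scale, with an unadjusted p of 0.00682 and an adjusted p of 0.799. Ratios of group means were taken only for members with a mean of at least 1 FPKM in NN fat. By this ratio LOX was 2.20 times higher in HN fat. Above it were COL14A1 at 2.81, COL23A1 at 2.48, COL1A1 at 2.35, COL20A1 at 2.29, COL1A2 at 2.28 and COL12A1 at 2.24. COL6A6 was tested but had no ratio, with means of 1.73 FPKM in HN and 0.46 FPKM in NN fat. LOXL2, a relative that also acts on type IV collagen, had 33.7, 49.1 and 24.6 FPKM in HN fats, against 16.7, 18.5 and 19.3 FPKM in NN fats. LOXL1, known in mammals for cross-linking elastin, had 188, 117 and 92.04 FPKM in HN fats, against 80.4, 87.8 and 82.4 FPKM in NN fats. Neither LOXL1 nor LOXL2 overlapped between the groups, with log2 differences of 0.59 ± 0.24 and 0.89 ± 0.23 (SE). LOXL3 overlapped, and LOXL4 stayed below 1 FPKM in every fat.

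The hydroxylases differed less, with a median log2 difference of 0.20 for the prolyl and 0.23 for the lysyl hydroxylases. P4HA1, P4HA2 and P4HA3 are the catalytic subunits of prolyl 4-hydroxylase, which makes the hydroxyproline that holds the helix together. P4HA2 had 70.1, 63.7 and 54.5 FPKM in HN fats, against 62.01, 45.3 and 54.3 FPKM in NN fats. P4HA1 had 35.3, 35.3 and 38.97 FPKM in HN fats, against 27.6, 36.5 and 35.6 FPKM in NN fats. Both overlapped between diets. P4HA3 did not overlap, with 24.3, 25.8 and 26.3 FPKM in HN fats, against 16.7, 15.3 and 23.4 FPKM in NN fats, a log2 difference of 0.47 ± 0.17 (SE). Lysyl hydroxylases prepare the lysines used for cross-links. PLOD2, the one that acts on the ends of the chains, had 45.6, 81.4 and 55.6 FPKM in HN fats, against 39.8, 45.3 and 65.7 FPKM in NN fats. PLOD1 had 38.3, 33.3 and 35.96 FPKM in HN fats, against 30.5, 32.02 and 31.04 FPKM in NN fats, without overlap but with a log2 difference of only 0.19 ± 0.11 (SE).

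**Figure D3:**
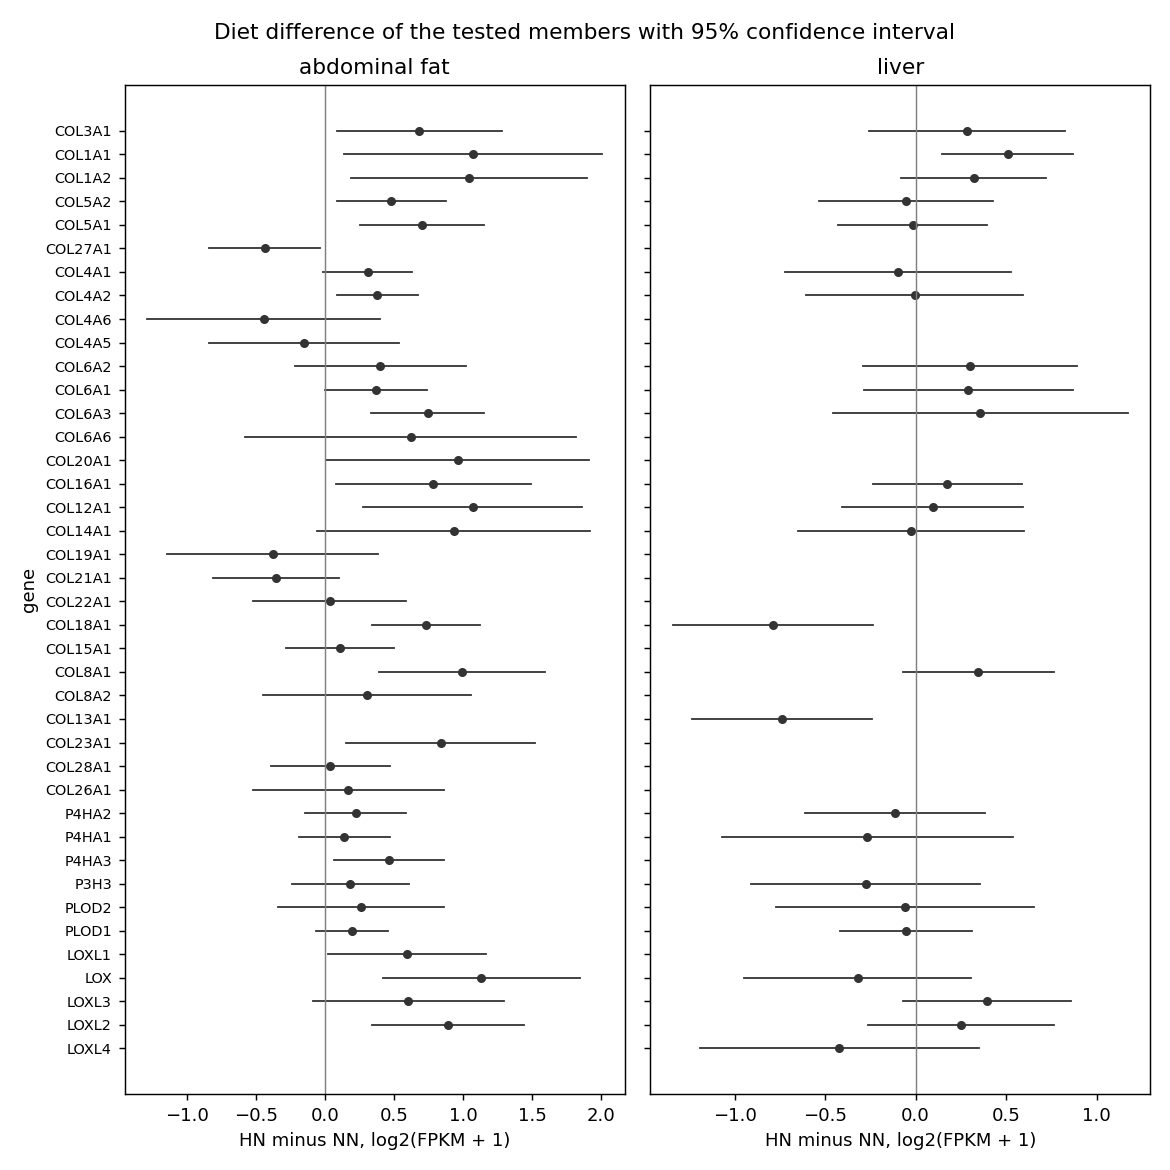
Difference of HN minus NN in log2(FPKM + 1) for each member tested, with the 95% confidence interval of the limma fit, in abdominal fat (left, 38 members) and liver (right, 25 members). Most points lay right of 0 in fat, led by LOX at 1.13, whereas points lay on both sides of 0 in liver, with COL18A1 at -0.79 and COL13A1 at -0.74.

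The difference in fat was uneven across the HN fats. HN fat 2 had the highest value of the 6 fats for 18 of the 38 members and HN fat 1 for 12, against 3 for HN fat 3, 1 for NN fat 1, 3 for NN fat 2 and 1 for NN fat 3. The same count was not made over all genes, so it does not show whether this unevenness was particular to the members. Cell type markers also differed between the fats. Of the 6 adipocyte markers, 5 had a lower mean in HN fat, with a median log2 difference of -0.17, beside -0.07 over all genes tested. The 5 smooth muscle and pericyte markers all had a higher mean in HN fat and summed to 366 to 602 FPKM, against 234 to 426 FPKM in NN fat. The 5 markers of proliferating cells likewise all had a higher mean and summed to 15.6 to 42.0 FPKM in HN fat, against 8.57 to 16.2 FPKM in NN fat. Fibroblast markers had a higher mean for 2 of 6 and summed to 1015 to 1461 FPKM in HN fat, against 872 to 1159 FPKM in NN fat. The 5 endothelial markers had a lower mean for 4 and summed to 412 to 677 FPKM in HN fat, against 613 to 724 FPKM in NN fat, and the 5 hepatocyte markers all had a lower mean in HN fat. No marker of these lists was at 0 in any fat, and the part of these markers in the collagen values was not tested.

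Genes that work with collagens were read from lists of folding and secretion factors, procollagen processing enzymes, fibril partners and collagen receptors. None of them passed an adjusted p of 0.05 in fat by limma. At an unadjusted p under 0.05, 4 of 11 folding and secretion genes were higher in HN fat and none lower, beside the 2.39% of all genes that were higher and 2.29% that were lower. They were SERPINH1, the collagen chaperone HSP47, with a log2 difference of 0.54 ± 0.19 (SE), the prolyl isomerases FKBP10 with 0.79 ± 0.23 and PPIB with 0.36 ± 0.15, and the transcription factor CREB3L1 with 0.81 ± 0.34. Of 6 processing genes 2 were higher, ADAMTS2, the procollagen N-proteinase, with 1.00 ± 0.30, and PCOLCE, an enhancer of the C-proteinase, with 0.65 ± 0.26. Of 14 fibril partners 2 were higher, TNC with 1.47 ± 0.49 and SPARC with 0.62 ± 0.21, and DPT was lower with -0.35 ± 0.13. Of 5 receptors 2 were higher, DDR2 with 0.52 ± 0.17 and the endocytic receptor MRC2 with 0.84 ± 0.24. The median log2 differences of the 4 lists, in the same order, were 0.30, 0.28, 0.39 and 0.13, beside -0.07 over all genes tested. The P3H relatives in fat were LEPRE1 at 37.9 to 52.1 FPKM in HN and 31.9 to 35.5 FPKM in NN birds, LEPREL1 at 25.5 to 28.1 FPKM in HN and 21.8 to 30.2 FPKM in NN birds, and LEPREL4 at 17.5 to 29.4 FPKM in HN and 11.3 to 34.2 FPKM in NN birds.

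Effect of HFD on collagens in liver was then examined, and the direction over the members depended on the scaling of the libraries. By limma, 0 of the 25 members tested reached an adjusted p under 0.05, with a lowest adjusted p of 0.392, and 0 of 11278 genes did so, a share of 0.0%. At an unadjusted p under 0.05, 1 member was higher and 2 were lower in HN liver, against 3.42% of all genes higher and 8.54% lower. With median-ratio scaling the count over all genes was 801 higher and 567 lower, beside 386 higher and 963 lower as deposited. The median log2 difference was -0.02 over the members, with 11 of 25 higher, and -0.06 over all genes. With median-ratio scaling it was 0.07 over the members, with 18 of 25 higher, and 0.03 over all genes, and with quantile normalization it was 0.09, with 16 of 25 higher, and -0.03 over all genes. Without HN liver 3 the median over the members was 0.16, with 16 of 25 higher. At an unadjusted p under 0.05, 4 were then higher, beside 408 of 11219 genes. Without NN liver 1 or NN liver 3 the median was 0.09 or 0.06. Without NN liver 2 it was -0.04, with 12 of 25 higher. None was then higher at an unadjusted p under 0.05, beside 249 of 11244 genes. The groups did not overlap for 2 members that were higher in HN liver, against 6.12% of all genes, and for 2 that were lower, against 15.0%.

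COL18A1, which hepatocytes produce in mammals, and COL3A1 were the highest collagens of NN livers. COL18A1 had 26.2, 16.04 and 27.99 FPKM in HN livers, against 36.1, 45.6 and 38.9 FPKM in NN livers. All HN livers lay below all NN livers, with a log2 difference of -0.79 ± 0.23 (SE; 95% interval -1.34 to -0.23) and an adjusted p of 0.392. COL13A1, a transmembrane collagen of cell junctions, had 1.98, 2.38 and 2.94 FPKM in HN livers, against 5.89, 4.97 and 3.46 FPKM in NN livers, again without overlap, a log2 difference of -0.74 ± 0.21 (SE) and an adjusted p of 0.392. COL1A1 had 19.3, 17.9 and 18.2 FPKM in HN livers, against 13.5, 10.6 and 14.3 FPKM in NN livers, and COL8A1 had 1.81, 1.35 and 1.80 FPKM in HN livers, against 1.30, 1.14 and 0.83 FPKM in NN livers. These were the members for which all HN livers lay above all NN livers, with log2 differences of 0.51 ± 0.15 and 0.35 ± 0.18 (SE).

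Markers of other cell types differed between the livers as well. All 5 endothelial markers had a lower mean in HN liver, with a median log2 difference of -0.80, and summed to 29.0 to 47.4 FPKM, against 46.0 to 72.2 FPKM in NN liver. Among them VWF had -1.08 ± 0.28 (SE) and TEK -0.83 ± 0.30, both at an unadjusted p under 0.05. Of the 4 smooth muscle and pericyte markers tested, 3 had a higher mean in HN liver, with DES at 0.79 ± 0.18 and ACTA2 at 0.76 ± 0.23 (SE). MYH11 was lower, at 9.20, 5.22 and 6.22 FPKM in HN livers, against 15.44, 10.23 and 10.15 FPKM in NN livers. At an unadjusted p under 0.05 by limma, 2 of these markers were higher and 1 was lower. All 5 markers of this list summed to 48.9 to 83.4 FPKM in HN liver, against 38.9 to 48.5 FPKM in NN liver. The hepatocyte markers had a higher mean for 3 of 5, and ALB had -0.92 ± 0.25 (SE). None of these markers passed adjustment, and their part in the liver values of COL18A1, COL13A1 and COL1A1 was not tested.

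The other chains overlapped between the livers. COL3A1 had 65.9, 55.98 and 38.2 FPKM in HN livers, against 43.7, 36.8 and 47.9 FPKM in NN livers. COL1A2 had 15.8, 15.8 and 11.3 FPKM in HN livers, against 10.9, 10.5 and 12.03 FPKM in NN livers. HN liver 3 was the lowest of the HN livers for both. Type V chains were low, with COL5A1 at 6.97, 5.05 and 4.72 FPKM in HN livers, against 6.24, 5.34 and 5.21 FPKM in NN livers. COL5A2 was at 6.20, 6.16 and 3.85 FPKM in HN livers, against 6.51, 4.97 and 5.22 FPKM in NN livers. The COL5A1 to COL5A2 ratio ran between 0.820 and 1.23 in the HN livers and between 0.959 and 1.07 in the NN livers, whereas all fats were at 0.439 to 0.629. Type IV chains were COL4A1 at 26.3, 23.2 and 14.7 FPKM in HN livers, against 28.4, 17.99 and 21.8 FPKM in NN livers. COL4A2 was at 18.1, 18.5 and 10.3 FPKM in HN livers, against 17.5, 12.5 and 16.01 FPKM in NN livers. Their log2 differences of -0.10 ± 0.26 and -0.00 ± 0.25 (SE) were smaller than their errors.

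Type VI chains in liver had higher means in HN birds, within their spread. COL6A1 had 14.8, 28.8 and 21.8 FPKM in HN livers, against 18.7, 15.3 and 17.2 FPKM in NN livers. COL6A2 had 20.2, 34.8 and 22.7 FPKM in HN livers, against 22.3, 15.9 and 23.5 FPKM in NN livers. COL6A3 was much lower than its partner chains, at 4.09, 4.12 and 1.97 FPKM in HN livers, against 2.51, 1.21 and 3.74 FPKM in NN livers. The COL6A3 to COL6A1 ratio thus ran between 0.0902 and 0.276 in the HN livers and between 0.0789 and 0.217 in the NN livers. Among FACIT collagens, COL12A1 had 2.74, 2.27 and 1.40 FPKM in HN livers, against 2.20, 1.59 and 1.91 FPKM in NN livers. COL16A1 had 3.14, 2.57 and 2.88 FPKM in HN livers, against 2.41, 1.90 and 3.03 FPKM in NN livers. COL14A1 had 4.63, 3.85 and 2.55 FPKM in HN livers, against 4.73, 2.41 and 4.22 FPKM in NN livers. All 3 overlapped between the diets.

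With values as deposited, the enzymes of liver had a lower mean in HN birds for 7 of the 9 tested, against 57.8% of all genes. None of them passed an unadjusted p of 0.05 by limma. Over the alternative fits described below, PLOD1, PLOD2 and P4HA2 reached log2 differences of 0.06, 0.20 and 0.01, so their direction was not kept. LOX, LOXL4, P3H3 and P4HA1 stayed below 0, but came as close to it as -0.069, -0.12, -0.002 and -0.017. LOX had 1.19, 1.13 and 1.92 FPKM in HN livers, against 3.22, 1.54 and 1.47 FPKM in NN livers. LOXL2 had 3.62, 5.90 and 3.35 FPKM in HN livers, against 2.99, 3.15 and 3.97 FPKM in NN livers. LOXL4 had 1.02, 0.27 and 1.84 FPKM in HN livers, against 1.43, 1.22 and 2.24 FPKM in NN livers. Lysyl oxidases were thus at most 5.90 FPKM in any liver. PLOD1 was the highest enzyme there, at 23.4, 24.2 and 26.5 FPKM in HN livers, against 22.2, 25.2 and 29.8 FPKM in NN livers. PLOD2 was at 2.89, 6.37 and 4.91 FPKM in HN livers, against 3.92, 6.97 and 3.88 FPKM in NN livers. P4HA1 was at 4.64, 12.9 and 5.48 FPKM in HN livers, against 7.67, 9.08 and 9.16 FPKM in NN livers. Among the HN livers, P4HA1 was highest in HN liver 2. P4HA2 was at 3.44, 4.75 and 4.24 FPKM in HN livers, against 5.13, 3.25 and 5.51 FPKM in NN livers.

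The diet difference in fat was then set against that in liver with the diet by tissue interaction over all 12 libraries. By limma, 0 of 36 members and 0 of 12544 genes, a share of 0.0%, reached an adjusted p under 0.05. At an unadjusted p under 0.05 the HN minus NN difference was higher in fat than in liver for 7 members, against 2.5% of all genes, and lower for none, against 2.05%. COL18A1 had the lowest p, with an interaction of 1.52 ± 0.30 (SE) on the log2 scale, an unadjusted p of 0.000313 and an adjusted p of 0.328. COL13A1 was next by p with 0.88 ± 0.26 and an adjusted p of 0.898, and then LOX with 1.45 ± 0.43 and an adjusted p of 0.965. The others were COL12A1 with 0.97 ± 0.43, COL23A1 with 0.85 ± 0.34, COL5A1 with 0.72 ± 0.27 and P4HA3 with 0.65 ± 0.24. COL13A1 was at most 0.33 FPKM in any fat, and COL23A1 and P4HA3 were at most 0.14 and 0.69 FPKM in any liver, so on log2(FPKM + 1) a change in that tissue could hardly show and their values mostly restate the diet difference of the other tissue. Leaving out single libraries gave 4 to 15 members higher in fat at this threshold. The count was 15 without HN fat 3 and 4 without NN fat 1 or NN fat 2. Over all genes it was 411 of 12503 without HN fat 3, 210 of 12525 without NN fat 1 and 263 of 12484 without NN fat 2. With all libraries it was 313 of 12544. Of the members, 0 passed adjustment in any of the fits that left out a library. Taking fat and liver of 1 number and diet as a bird, in a paired fit, 0 members and 4 of all genes passed.

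**Figure D4:**
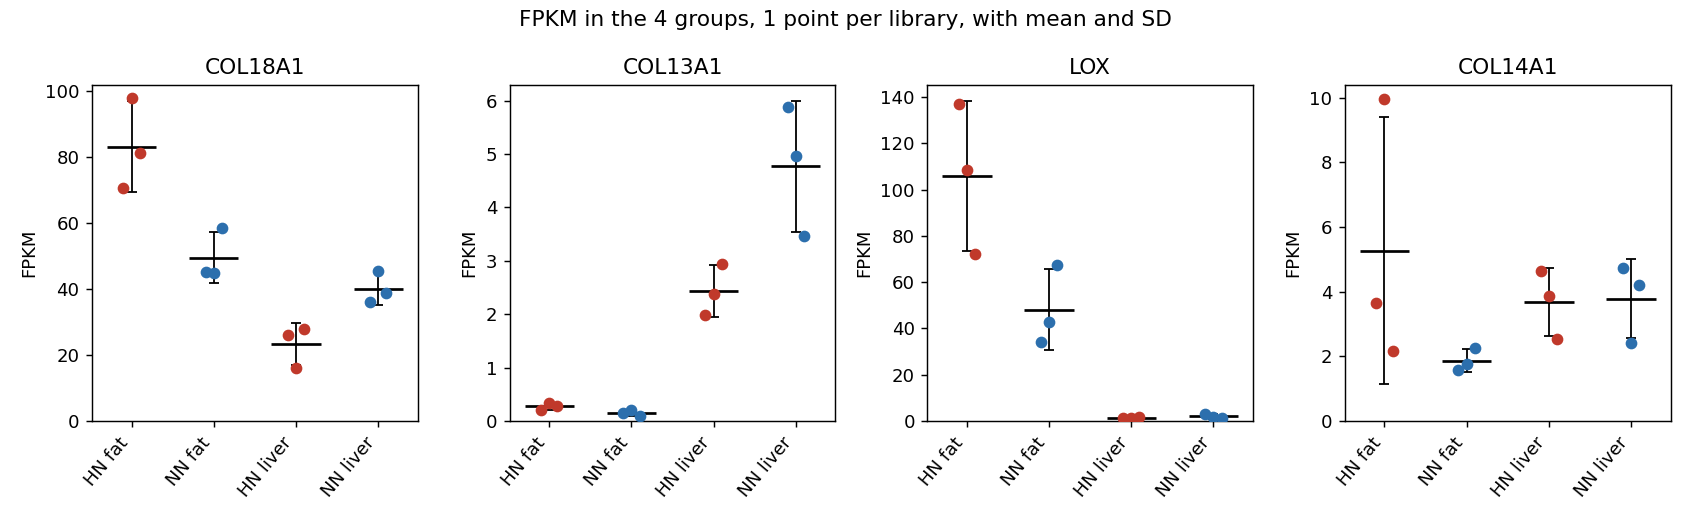
FPKM of COL18A1, COL13A1, LOX and COL14A1 in HN fat, NN fat, HN liver and NN liver, 1 point per library, with the horizontal line at the mean and the bar showing SD (3 libraries a group). COL18A1 and COL13A1 were higher in HN than NN fat and lower in HN than NN liver in every library, LOX was low in all livers, and COL14A1 in HN fat overlapped each of the other groups.

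Fat was compared with liver within each diet. Most tested members were higher in fat. In HN birds 33 of 35 members were higher in fat and 1 was lower at an adjusted p under 0.05 by limma, against 50.7% and 14.8% of all 12511 genes. In NN birds 30 of 35 were higher in fat and 3 were lower, against 59.4% and 16.6% of all 12492 genes. Genes in general were higher in fat on this scale, with a median log2 difference of 0.64 in HN and 0.65 in NN birds over all genes, and median-ratio scaling took that median to -0.03 and -0.02. Under that scaling 3440 genes were higher and 3756 lower in HN birds, and 3893 higher and 4083 lower in NN birds, beside 6349 and 1853 in HN birds and 7416 and 2075 in NN birds as deposited. The median over the members was 3.44 in HN and 3.12 in NN birds. With median-ratio scaling it was 2.74 in HN and 2.60 in NN birds, with 31 members higher and 1 lower in fat of HN birds and 29 higher and 5 lower in fat of NN birds. A member that was tested only because it was high in either tissue had to differ, so these counts describe the list. Of the related genes, all 14 fibril partners tested in HN birds and all 13 in NN birds were higher in fat, as were all 5 receptors in each diet. The 11 folding and secretion genes were split, with 5 higher and 3 lower in fat in each diet.

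COL28A1 had the largest gap between the tissues in NN birds. Set against its fat values above, it had 0.06, 0.05 and 0.04 FPKM in HN livers, against 0.04, 0.00 and 0.04 FPKM in NN livers. The log2 difference, fat minus liver, was 7.21 ± 0.19 in HN and 7.20 ± 0.12 in NN birds (SE). LOXL1 came next with 5.77 ± 0.10 in NN birds (SE), and its livers had 0.54, 0.77 and 0.48 FPKM in HN and 0.58, 0.51 and 0.55 FPKM in NN birds. COL3A1 followed with 5.63 ± 0.13 (SE) in NN birds and 6.03 ± 0.31 in HN birds. As ratios of group means, COL3A1 was 67.6 times higher in fat than in liver in HN birds and 50.6 times in NN birds, and LOX was 74.9 times higher in HN birds and 23.2 times in NN birds. The corresponding ratios for COL4A1 were 22.9 and 17.5, and for COL6A3 they were 78.3 and 63.4.

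Several chains present in fat were close to 0 in liver. COL20A1 had 0.00, 0.02 and 0.01 FPKM in HN livers, against 0.01, 0.01 and 0.03 FPKM in NN livers. COL15A1 had 0.09, 0.16 and 0.06 FPKM in HN livers, against 0.19, 0.02 and 0.11 FPKM in NN livers. COL23A1 had 0.14, 0.05 and 0.00 FPKM in HN livers, against 0.04, 0.09 and 0.09 FPKM in NN livers. These were at most 0.19 FPKM in any liver. P4HA3 had 0.27, 0.17 and 0.44 FPKM in HN livers, against 0.69, 0.26 and 0.48 FPKM in NN livers. COL27A1 had 0.51, 1.09 and 0.62 FPKM in HN livers, against 0.83, 0.75 and 1.04 FPKM in NN livers. Both passed 1 FPKM in few or no livers, against at least 2.98 FPKM in every fat. COL8A2 had 0.35, 0.39 and 0.12 FPKM in HN livers, against 0.13, 0.20 and 0.16 FPKM in NN livers. COL26A1, with 0.20, 0.33 and 0.61 FPKM in HN livers, against 0.74, 0.22 and 0.69 FPKM in NN livers, stayed below 1 FPKM. COL22A1 was listed at 0 in all 6 livers and at 0.59 to 1.42 FPKM in the fats.

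The exceptions were few. COL13A1 was lower in fat in both diets. In fat it had 0.21, 0.33 and 0.28 FPKM in HN birds, against 0.15, 0.20 and 0.10 FPKM in NN birds, and its fat minus liver difference was -1.42 ± 0.20 in HN and -2.31 ± 0.19 in NN birds (SE). In NN birds COL14A1 with -0.71 ± 0.22 (SE) and LOXL4 with -0.67 ± 0.21 (SE) were also lower in fat, with adjusted p of 0.0202 and 0.0217. LOXL4 had 0.96, 0.90 and 0.71 FPKM in HN fats, against 0.96, 0.44 and 0.53 FPKM in NN fats. The COL14A1 call was lost without NN fat 1, NN fat 2, NN liver 1 or NN liver 3. It was also lost in the fit of all 12 libraries, which called 29 members higher and 2 lower in fat of NN birds. The LOXL4 call was lost without NN fat 2 or NN fat 3. COL18A1 was close in both tissues of NN birds, at 0.29 with an adjusted p of 0.103, and was higher in fat in HN birds at 1.81 ± 0.24 (SE; adjusted p 0.000549). In NN birds COL18A1 turned to -0.45 with median-ratio scaling. PLOD1 was also close, at 0.52 in HN birds and 0.28 in NN birds, and turned to -0.23 and -0.46 with that scaling. P3H3, a prolyl 3-hydroxylase, was at 0.96 in HN birds and 0.50 in NN birds and turned to -0.16 with that scaling in NN birds only. The P3H3 call was lost without HN fat 1 or HN fat 3 in HN birds and without NN fat 2 or NN liver 2 in NN birds. It was also lost in NN birds in the fit of all 12 libraries. The PLOD1 call in HN birds was lost without HN fat 1. Scaling cost calls in HN birds too, and quantile normalization left 30 members higher, without P3H3, PLOD1 and COL21A1. Their highest adjusted p by limma over the alternatives was 0.496, 0.148 and 0.324.

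**Figure D5:**
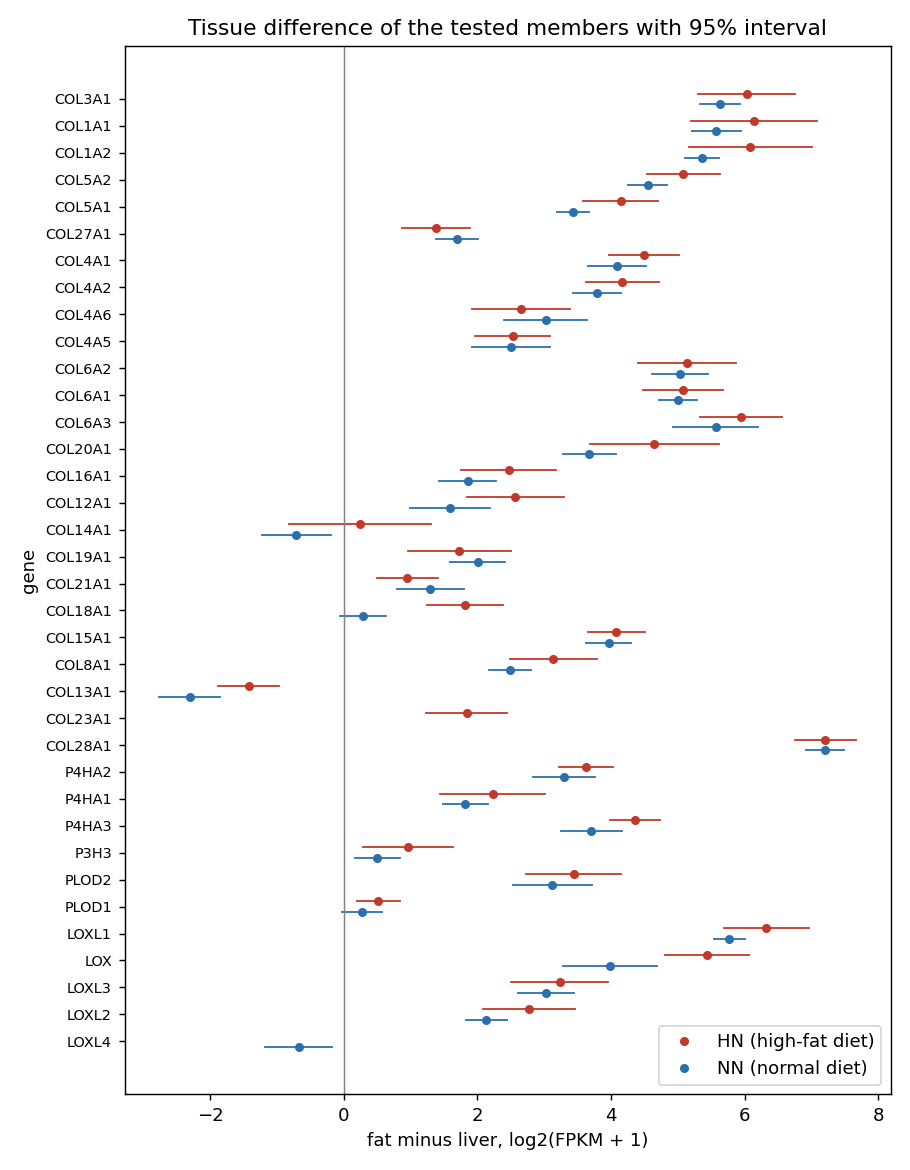
Difference of fat minus liver in log2(FPKM + 1) for each member tested, with the 95% confidence interval of the limma fit, for HN birds (upper point of a gene) and NN birds (lower point). Nearly all points lay right of 0, up to 7.21 for COL28A1 in HN birds and 7.20 in NN birds, while COL13A1 lay left of 0 in both diets at -1.42 and -2.31.

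The genes of several chains lie side by side in the chicken genome annotation GRCg7b. Among the members 6 neighbouring pairs were found there, COL4A1 with COL4A2, COL4A3 with COL4A4, COL4A5 with COL4A6, COL3A1 with COL5A2, COL6A1 with COL6A2, and COL19A1 with COL9A1. Neighbours were not always at like levels. COL19A1 averaged 3.41 FPKM over the fats, beside 0.07 FPKM for COL9A1, and COL3A1 averaged 2886 FPKM, beside 184 FPKM for COL5A2. The order of the 6 fats was the same for both genes of only 1 pair, COL4A5 and COL4A6. The COL4A1 to COL4A2 ratio was narrow across fats, at 1.67 to 1.74 in HN and 1.75 to 1.83 in NN birds, and was 1.26 to 1.46 in HN and 1.36 to 1.63 in NN livers.

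In all, 12 members were below 1 FPKM in every fat and 24 in every liver. The members below a mean of 1 FPKM in fat were COL2A1, COL11A1, COL24A1, COL4A3, COL4A4, COL9A1, COL9A2, COL9A3, COL10A1, COL13A1, COL17A1, COL25A1, COL7A1 and LOXL4. Of these, COL13A1 and LOXL4 averaged at least 1 FPKM in liver, and COL24A1, a fibrillar chain, reached 1.63 FPKM in NN liver 1. COL10A1, the collagen of growth plate cartilage, was at most 0.07 FPKM in any library. COL17A1, a chain of epithelial hemidesmosomes, was at most 0.46 FPKM.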

How the data were processed

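FPKM per gene were deposited by the authors for each of the 12 libraries (BGISEQ-500). The submitters' processing notes name HISAT2 2.0.4, Bowtie2 2.2.5 and RSEM 1.2.12, without their roles, and the genome build is not given in the sources used here, so no coordinates are printed. Sex-linked dwarf birds were not analysed here. Groups and replicate numbers were taken from the labels. Values were tested as log2(FPKM + 1) for genes whose mean reached 1 FPKM in the libraries fitted, with limma 3.58.1 (R 4.3.3, trend) and Benjamini-Hochberg adjustment over all genes tested. HN and NN were fitted within each tissue, fat and liver within each diet, and the interaction over all 12 libraries. Fold differences on this scale understate changes of low genes. The script was tested on simulated data. Values were summarised with pandas 2.3.3 in Python 3.11.15. Genes were classed by hand, and the members and lists were chosen with earlier results of these data known.

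Values in every library are given for the 2 highest members of a class (highest group mean at least 1 FPKM), members with an unadjusted p under 0.05 for diet or the interaction, and the 3 largest and 3 smallest fat minus liver differences in NN. COL4A5, COL11A1 and other members were named beside these for their role or single values. The alternatives were other pseudocounts, filters and scalings, 1 fit of all libraries, a replicate block and leaving out each library. Fat and liver of the same number deviated together, with a correlation of their deviations of 0.119 to 0.397 in HN and 0.232 to 0.290 in NN birds. This is a hint from the data that they were paired. In HN birds 5 of 6 libraries correlated best with their own number, against 6 of 6 in NN birds. HN liver 1 and NN liver 1, from different birds, correlated at 0.399, so the same number can deviate together without pairing. With the replicate number as a block no call on a member changed. Chromosome neighbours were read from the RefSeq annotation of GRCg7b, in which all 52 members were found by gene identifier.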

Additional observations from a re-analysis of the deposited data

Results flagged for a closer look

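For 2 members, COL18A1 and COL13A1, all HN fats lay above all NN fats while every HN liver lay under every NN liver. The share of all genes with both separations was not counted. In fat alone 3.49% of all genes tested lay higher without overlap, and in liver alone 15.0% lay lower. COL13A1 was too low in fat to be tested within that tissue. Other members, such as LOX and COL4A1, also had a higher mean in HN fat and a lower mean in HN liver, with overlap in at least 1 tissue. COL18A1 had an interaction of 1.52 (HN minus NN in fat, less HN minus NN in liver, log2 scale). The difference was tested, with an adjusted p of 0.328 by limma and 0.196 to 0.991 over the alternatives. COL13A1 had an interaction of 0.88 with the same pattern, an adjusted p of 0.898, and 0.609 to 1.00 over the alternatives. In fat COL13A1 was at most 0.33 FPKM in any library, with 0.21 FPKM in its lowest HN fat and 0.20 FPKM in its highest NN fat. The separation in fat was thus very small, and its interaction mostly restates its liver difference of -0.74.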

How the results depend on the processing

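The 95 gene results compared were members at an unadjusted p under 0.05 for diet or the interaction and members called between tissues. Of their values under the alternatives, 1229 kept their direction and side of the adjusted threshold, 17 lost significance and 3 reversed. For diet and interaction results, none of them called, keeping their side meant staying uncalled. These were 232 of the unchanged values for fat, 38 for liver and 126 for the interaction. The tissue results held 425 unchanged values in HN and 408 in NN birds, and all that lost significance or reversed. P3H3, fat minus liver in NN birds, went to -0.16 with median-ratio scaling and -0.22 with quantile normalization, and PLOD1 in HN birds went to -0.23 with median-ratio scaling. Tissue differences that had not been called also turned. With median-ratio scaling COL18A1 and PLOD1 in NN birds went to -0.45 and -0.46 and were then called lower in fat (adjusted p 0.0335 and 0.0149), PLOD1 went to -0.11 with quantile normalization, and COL14A1 in HN birds went to -0.36 and -0.52 with these scalings. No diet or interaction alternative called a member. The median difference of members in fat was 0.26 without a filter on low values, where more low genes entered, and 0.36 to 0.59 when each library was left out (highest without HN fat 3). In liver it was -0.043 to 0.16 (highest without HN liver 3). Members higher in HN fat at an unadjusted p under 0.05 numbered 8 to 18 when each library was left out, against 17 with all libraries. Over all genes tested the range was 159 to 658, against 296 with all libraries. Fits without a library have fewer samples. Leaving out single libraries called 31 to 34 members between tissues in HN birds and 30 to 32 in NN birds. With the replicate number as a block between HN and NN, 0 members were called in either tissue and 18 in fat were higher at an unadjusted p under 0.05. Of all 12394 genes in that fat fit, 323 were higher at this threshold. Numbers were not shown to pair HN with NN birds, since correlations of same-numbered deviations were 0.04 to 0.22 in fat and -0.04 to 0.40 in liver, and 4 of 6 fats and 2 of 6 livers correlated best with their own number. Depth is unknown with FPKM, so low values carry no counting interval.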
